A study of Homo sapiens with 18 samples.

Results

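The 42 cell cycle and proliferation genes described here were taken as a list of gene symbols, by a rule that uses no measured value. The list was nevertheless chosen with earlier results of these data known. All 42 were among the 58051 genes listed in the count files and all were among the 15037 genes with enough reads to be tested. They were followed across 18 RNA-seq libraries of the human monocytic leukaemia cell line THP-1, and in particular across the 3 experiment numbers in which every group was made. Cells carried 1 of 3 retroviral MSCV-GFP vectors: IRES (MSCV-GFP-IRES), used here as the control; NIC1 (MSCV-GFP-MYC-NIC1), a construct named for the intracellular part of the receptor NOTCH1; or DNMAML (MSCV-GFP-DNMAML), named for a dominant negative form of the Notch co-activator Mastermind-like. All libraries, the IRES controls included, came from transduced cells sorted for GFP and then given the phorbol ester PMA at 5 ng/ml for 48 h, and 9 of the 18 also received IL-4 at 20 ng/ml for 3 h. Each of the 6 groups (3 vectors, without or with IL-4) held 3 libraries, numbered as experiments 1, 2 and 3. The labels do not say whether the libraries came from separate transductions or cultures, so the p-values below reflect only how far these libraries varied, some of which can be technical.

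The cell cycle runs from G1, in which D and E cyclins with their kinases release E2F factors from the pocket proteins, through S phase, in which licensed origins fire and DNA is copied, to G2 and mitosis, in which CDK1 with cyclins A and B drives chromosome segregation. Many of these genes are transcribed in waves, one of them at the start of S phase through E2F sites. A later wave, in G2 and M, runs through paired CHR and CCAAT elements. Of these, the CHR is read by the DREAM and MuvB complexes with FOXM1. PMA is known to slow the division of THP-1 cells as they take on macrophage features.

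Promoter sequences are given first because the words they held differed between the genes of S phase and of mitosis. RefSeq promoter windows (GRCh38.p14) were available for 31 of the 42 genes, and the 250 bases before each start were searched on both strands. A gene with several windows, as 8 of the 31 had, counted as holding a word if any of them did. The E2F words were TTTCCCGC, TTTCGCGC, TTTGCCGC and TTTGGCGC, the CHR words were TTTGAA or TTCGAA or TTTAAA or TTCAAA, and the third element was CCAAT. In the 4 windows below, each written 5′ to 3′ on the gene's own strand, capitals mark these words, and a word found on the other strand appears as its reverse complement. MKI67 (the Ki-67 antigen of chromosome surfaces, chr10:128126424-128126673, minus strand) and KIF11 (the motor that separates spindle poles, chr10:92592880-92593129, plus strand) stand for the mitotic genes. MCM6 (a subunit of the replicative helicase, chr2:135876444-135876693, minus strand) and E2F1 (an activating E2F factor, chr20:33686386-33686635, minus strand) stand for the S phase genes.
MKI67: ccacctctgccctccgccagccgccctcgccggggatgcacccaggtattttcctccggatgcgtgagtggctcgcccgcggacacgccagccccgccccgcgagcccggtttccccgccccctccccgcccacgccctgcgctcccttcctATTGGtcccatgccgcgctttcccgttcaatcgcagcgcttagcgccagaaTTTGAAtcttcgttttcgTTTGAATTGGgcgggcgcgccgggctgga
KIF11: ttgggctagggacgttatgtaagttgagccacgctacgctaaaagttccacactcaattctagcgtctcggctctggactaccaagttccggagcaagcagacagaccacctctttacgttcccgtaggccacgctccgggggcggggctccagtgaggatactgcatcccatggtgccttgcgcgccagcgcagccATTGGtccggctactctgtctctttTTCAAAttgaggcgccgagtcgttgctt
MCM6: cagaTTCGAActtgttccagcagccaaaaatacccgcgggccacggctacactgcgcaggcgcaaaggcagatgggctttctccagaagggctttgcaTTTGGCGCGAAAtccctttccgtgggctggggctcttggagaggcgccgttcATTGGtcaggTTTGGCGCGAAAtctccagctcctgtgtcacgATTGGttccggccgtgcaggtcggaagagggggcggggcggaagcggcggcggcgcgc
E2F1: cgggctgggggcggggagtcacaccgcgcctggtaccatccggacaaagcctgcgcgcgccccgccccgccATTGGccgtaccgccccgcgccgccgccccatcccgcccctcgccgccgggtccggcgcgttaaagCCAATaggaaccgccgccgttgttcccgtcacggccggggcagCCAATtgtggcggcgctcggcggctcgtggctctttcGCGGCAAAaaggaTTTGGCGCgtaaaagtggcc
In MKI67, 2 CHR words lay 47 and 29 bases before the start, and the second overlapped by its last base a CCAAT on the other strand. In KIF11 a CCAAT on the other strand lay 53 bases before the start and a CHR word lay 28 bases before it. MCM6 carried the run TTTGGCGCGAAA at 2 places, and in each the E2F words of both strands overlapped. The MCM6 window also held a CHR word, 246 bases before the start, and CCAAT words 100 and 58 bases before it. E2F1 carried 2 E2F words, 33 and 20 bases before the start, and CCAAT words at 179, 113 and 70 bases. The last 19 bases of the E2F1 window lie within the gene as GENCODE 29 draws it. All these distances are to the RefSeq start. GENCODE 29 places the start further downstream for KIF11 (92593286), MKI67 (128126385) and MCM6 (135876426). These matches describe the letters of the windows and say nothing of which factors bind there.

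Among the 12 replication genes with a window (origin licensing and DNA synthesis), 7 or 58.3% held an E2F word, against 3.4% of all 27305 genes with a window. CDC25A, which was counted with the licensing and firing genes, was 1 of the 7, and E2F1 was not counted among the 12. Among the 16 mitotic genes with a window, 1 held an E2F word (6.25%), which was CDK1. CHR words had the opposite order, with 13 of 16 mitotic genes (81.2%) and 4 of 12 replication genes (33.3%), against 26.5% of all genes. CCAAT was frequent in both, at 87.5% of the mitotic and 75.0% of the replication genes, against 37.0% of all. A CHR word and a CCAAT were both found for 15 of the 31 genes (48.4%), against 11.2% of all genes.

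**Figure D1:**
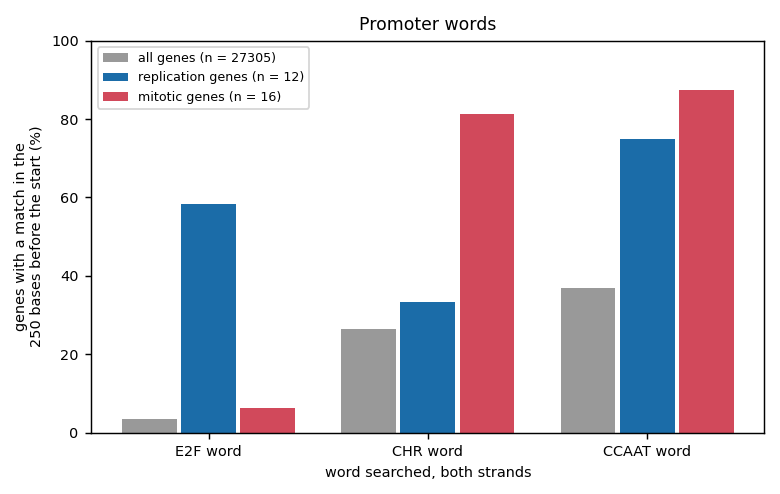
Bars give the percentage of genes whose 250 bases before the start held an E2F, CHR or CCAAT word, for all 27305 genes with a window, 12 replication genes and 16 mitotic genes. E2F words reached 58.3% in the replication genes and CHR words 81.2% in the mitotic genes.

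Each library held 12410668 to 15099788 reads assigned to genes. The labelled cell type was checked with 10 THP-1 and macrophage markers, all of which were tested, with a summed level of 1473 to 1908 CPM (counts per 1000000 reads in genes, after TMM scaling of the libraries). Within that list PTPRC was highest (510.6 to 632.7 CPM), while CD14 ran from 1.59 to 9.26 CPM and CD68 from 0.401 to 1.60. COL1A1, of the fibroblast and epithelium list, ran from 74.2 to 148.9 CPM. Of the markers of other cell types, HBB and PF4 had no read in any library. The T cell list reached 200 to 322 CPM, most of it CD4 and TRAC, while CD3E had at most 4 reads per library. IRES replicate 3 without IL-4 and DNMAML replicate 3 with IL-4 had the most genes with a read, at 23179 and 25322 against 21067 to 21557 in the other 16, and counts that moved by over 1.5 times without them are given below.

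Per kilobase of exon, the most abundant of the 42 genes were the replication genes MCM7 (mean 54.2 CPM per kb), MCM3 (47.1) and PCNA (35.3). TYMS (thymidylate synthase, 21.5 CPM per kb) and TPX2 (a spindle assembly factor, 20.5) came next. The least abundant were CDC25C, the phosphatase that activates CDK1 (0.928 CPM per kb), CCND2 (1.31), CCNE2 (1.54) and the kinetochore motor CENPE (1.98). The strand setting of the counting is not given in the sources used here, so reads could not be told apart where exons of a gene on the other strand overlap, as for CCNE2 (1629 shared exon bases with INTS8), MCM2 (1113 with AC023593.1), TYMS (967 with ENOSF1), FOXM1 (781 with ITFG2) and CCND1 (497 with LTO1).

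The experiment number carried most of the spread of these genes. With the sum of squares of log2 CPM divided among vector, IL-4, their interaction, experiment number and the rest, the median share of the number was 67.5% over the 42 genes and 29.4% over all genes tested. The vector took a median of 12.7% (all genes 11.2%) and IL-4 3.62% (all genes 5.07%). For 33 of the 42 genes the number held more than 50% of the spread, which was so for 26.3% of all genes. KIF11 (80.9%) and TOP2A (79.5%) had the highest shares, and MCM7 (14.9%) had the lowest. E2F1 had 59.0% of its spread on IL-4 and 29.1% on the number, CCNE2 had 38.4% on IL-4 and MCM7 33.3%.

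**Figure D2:**
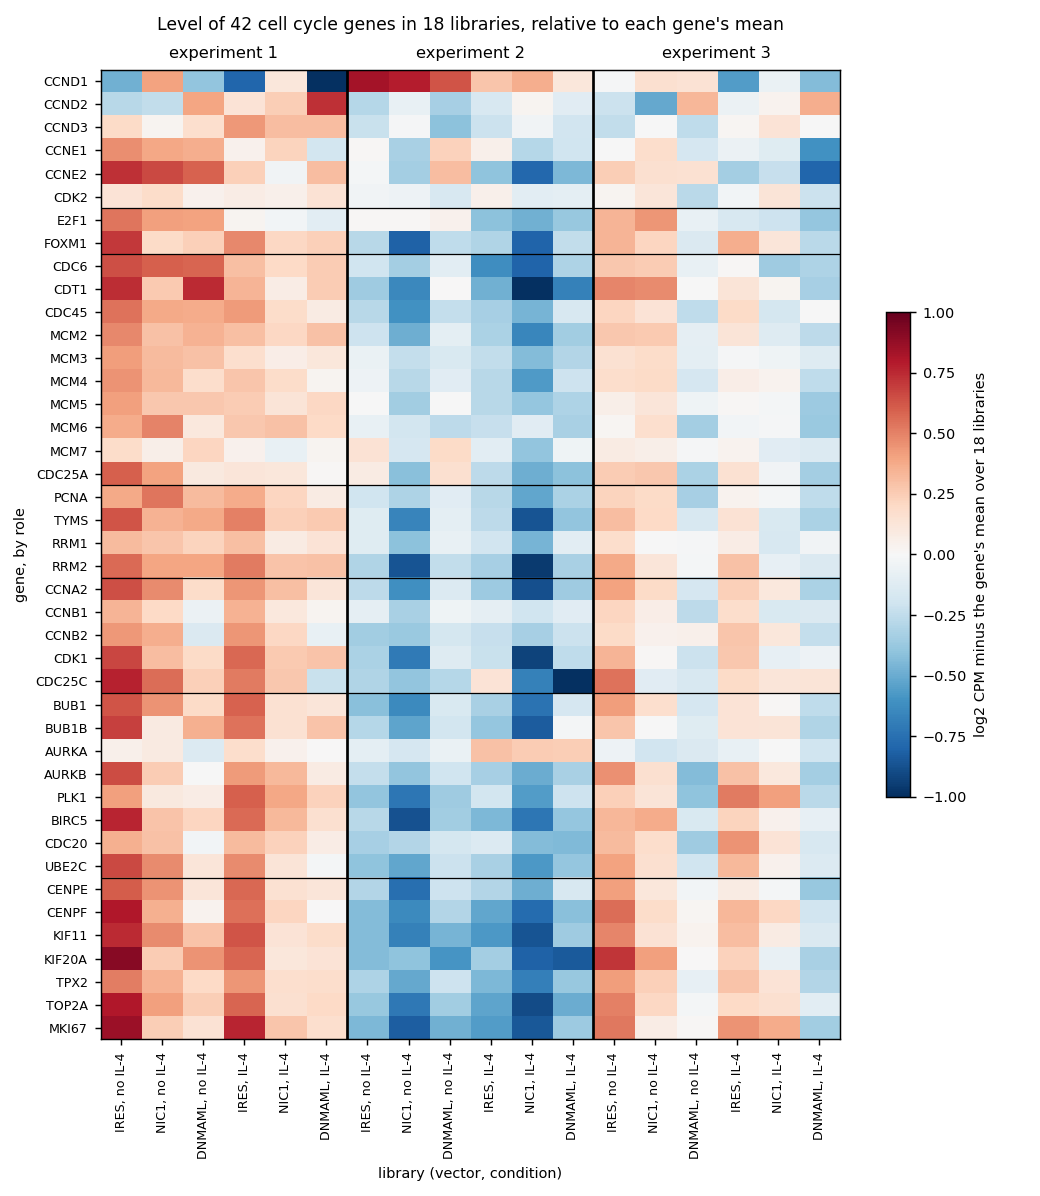
Rows are the 42 genes and columns the 18 libraries ordered by experiment number. Colour is log2 CPM minus the gene's mean over the 18 libraries, with the scale ending at 1 above and below. Experiment 2 is the low block for most genes, and CCND1 is high there.

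The cell cycle genes were lower in experiment 2 than in experiment 1. In a model with the 6 group means and the number as terms (edgeR's quasi-likelihood test, Benjamini-Hochberg adjusted p under 0.05 over all genes tested), 40 of the 42 genes fell, 1 rose (CCND1) and 1, AURKA, was not called (0.05 on the log2 scale, adjusted p = 0.558). Of all genes tested, 48.1% were called in that comparison, 23.1% lower and 24.9% higher, and the median change was -0.68 over the 42 genes against 0.005 over all genes. For 31 genes all 6 libraries of experiment 2 lay below all 6 of experiment 1, which held for 8.2% of all genes. For 36 genes experiment 2 was lower than experiment 1 in each of the 6 groups (19.4% of all genes). Libraries of the same vector and number without and with IL-4 may share a culture. If they do, the p-values between experiment numbers are too small. In bulk RNA, fewer dividing cells and less of these RNAs per cell cannot be told apart.

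Spindle, centromere and chromosome genes fell furthest, with a median of -0.95 and 7 of 7 lower. MKI67 (GRCh38, GENCODE 29, chr10:128096659-128126385, minus strand) ranged from 79.3 to 130 CPM (median 86.2) in experiment 1, from 39.9 to 55.9 (median 50.2) in experiment 2 and from 56.7 to 103 (median 84.4) in experiment 3. All 6 libraries of experiment 2 were below the other 12 for this gene, and the difference from experiment 1 was -0.99 on the log2 scale (SE 0.132, adjusted p = 7.2e-05 by edgeR). KIF20A, a kinesin of the central spindle, ranged from 9.90 to 17.2 CPM (median 11.7) in experiment 1, 5.12 to 7.21 (median 6.43) in experiment 2 and 7.32 to 15.04 (median 9.95) in experiment 3. Its lowest 6 libraries were likewise those of experiment 2, with a change of -0.99 (SE 0.0965, adjusted p = 5.79e-08). KIF11 went from 48.1 to 73.2 CPM (median 57.0) in experiment 1 to 24.0 to 34.1 (median 30.5) in experiment 2, and stood at 39.6 to 61.4 (median 47.4) in experiment 3. TOP2A, the topoisomerase that untangles sister chromatids, had 109.8 to 172 CPM (median 124) in experiment 1, 53.0 to 77.5 (median 69.1) in experiment 2 and 91.6 to 139.8 (median 111) in experiment 3. The groups did not overlap between experiment 2 and the rest for KIF11 or TOP2A. In all, 8 of the 42 genes had this complete separation (KIF11, KIF20A, TOP2A, BIRC5, RRM2, UBE2C, CENPF and MKI67), against 4.4% of all genes.

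The kinase and cyclins of mitotic entry moved with them. CDK1, the mitotic kinase (chr10:60778331-60794852, plus strand), ranged from 30.4 to 42.3 CPM (median 32.6) in experiment 1, 14.0 to 24.3 (median 21.8) in experiment 2 and 22.95 to 33.6 (median 26.3) in experiment 3. Experiments 1 and 2 did not overlap, experiments 2 and 3 did, and the change from experiment 1 to 2 was -0.79 (SE 0.0913, adjusted p = 1.48e-06). All 5 genes of this role fell, with a median of -0.78 and a range from CCNB1 (cyclin B1, -0.30) to CDC25C and CDK1 (both -0.79). Of the 8 mitotic kinase, checkpoint and exit genes 7 fell, with a median of -0.70. BIRC5, the survivin subunit of the chromosomal passenger complex, fell from 24.6 to 37.3 CPM in experiment 1 to 12.02 to 18.1 in experiment 2, and was at 19.8 to 28.5 in experiment 3. BUB1 (-0.75), BUB1B (-0.71), UBE2C (-0.71), PLK1 (-0.69), AURKB (-0.62) and CDC20 (-0.50), which sense attachment, trigger anaphase or drive mitotic exit, followed. AURKA, the spindle pole kinase, was the exception of this role.

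Origin licensing and firing genes, with CDC25A counted among them, fell by less but as regularly, 10 of 10 with a median of -0.48. MCM3, a helicase subunit (chr6:52264009-52284881, minus strand), ranged from 178 to 226 CPM (median 199.6) in experiment 1, 125 to 163 (median 143) in experiment 2 and 156 to 193 (median 167) in experiment 3. Experiment 2 lay below experiment 1 in all libraries and overlapped experiment 3, and the change was -0.47 (SE 0.0426, adjusted p = 2.25e-08). MCM6 ranged from 55.9 to 73.1 CPM (median 63.1) in experiment 1, 41.5 to 49.4 (median 45.0) in experiment 2 and 40.2 to 58.2 (median 51.2) in experiment 3, a change of -0.49 between experiments 1 and 2 (SE 0.0504, adjusted p = 1.28e-07). CDC6, which loads the helicase at origins, ranged from 15.3 to 20.8 CPM (median 18.2) in experiment 1, 7.64 to 12.4 (median 10.7) in experiment 2 and 10.4 to 16.1 (median 13.0) in experiment 3, a change of -0.82 (SE 0.0815, adjusted p = 7.06e-08). CDT1, its partner in helicase loading, changed by -0.92, and MCM7 by -0.13, the smallest called change of the role (adjusted p = 0.0333). The MCM7 call was lost without any 1 of 6 libraries (replicate 1 or 2 of NIC1 with IL-4, replicate 2 of NIC1 without IL-4 or of IRES with IL-4, and replicate 1 of DNMAML without or with IL-4). MCM6 and MCM3 both fell in each of the 6 groups, but their range in experiment 3 reached down to that of experiment 2.

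DNA synthesis genes fell in 4 of 4 cases, with a median of -0.69. PCNA, the sliding clamp of the replicative polymerases (chr20:5114953-5126626, minus strand), ranged from 53.9 to 73.7 CPM (median 64.7) in experiment 1, 35.5 to 47.2 (median 41.5) in experiment 2 and 40.4 to 59.2 (median 51.1) in experiment 3. Its change from experiment 1 to 2 was -0.60 (SE 0.073, adjusted p = 2.46e-06), with no overlap between those experiments. RRM1, the large subunit of ribonucleotide reductase, ranged from 58.3 to 68.9 CPM (median 65.6), 40.0 to 52.4 (median 49.6) and 49.4 to 62.4 (median 54.8) in experiments 1, 2 and 3, a change of -0.44 (SE 0.0502, adjusted p = 3.84e-07). RRM2, the small subunit that limits the enzyme in S phase, changed by -0.90 and TYMS by -0.78.

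The cyclins of G1 did not act as 1 group. CCND1, cyclin D1 (chr11:69641087-69654474, plus strand), was the gene that rose, and it ranged from 24.5 to 68.1 CPM (median 38.2) in experiment 1, 55.9 to 91.9 (median 73.1) in experiment 2 and 35.1 to 57.6 (median 50.2) in experiment 3. Experiment 2 was above experiment 1 in all 6 groups although the ranges overlapped, and the change was 0.85 (SE 0.136, adjusted p = 0.000286). CCND2, cyclin D2, ranged from 7.55 to 15.2 CPM (median 10.4), 7.25 to 9.33 (median 8.32) and 6.40 to 11.8 (median 9.06) in experiments 1, 2 and 3. These ranges overlapped, and its change of -0.34 was called (adjusted p = 0.0207), but it did not pass the F test over the 3 numbers (adjusted p = 0.0537). CCND3, cyclin D3 and the most abundant of the D cyclins by CPM, ranged from 109 to 144 CPM (median 127), 80.1 to 105.7 (median 92.8) and 89.5 to 117 (median 106), a change of -0.42 (SE 0.058, adjusted p = 7.55e-06). The CCND2 call was lost without DNMAML replicate 2 without IL-4 (-0.25), or without DNMAML replicate 1 (-0.26) or 2 (-0.25) with IL-4. CCNE2 (-0.68), CCNE1 (-0.29) and their kinase CDK2 (-0.17) fell. The CCNE1 call was lost without NIC1 replicate 2 without IL-4 (-0.22), and that of CDK2 without DNMAML replicate 1 without IL-4 (-0.15) or with it (-0.14). MCM7 was the other gene that did not pass the F test over the numbers (adjusted p = 0.0766), which 50.9% of all genes passed.

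Both transcription factors of the set fell. E2F1 (chr20:33675683-33686404, minus strand) ranged from 31.5 to 49.1 CPM (median 39.7) in experiment 1, 24.3 to 35.0 (median 30.1) in experiment 2 and 26.0 to 46.2 (median 31.3) in experiment 3. Those ranges overlapped, libraries with IL-4 being lower in each experiment, and within groups the change was -0.41 (SE 0.0613, adjusted p = 1.43e-05). FOXM1, the activator of the mitotic wave, changed by -0.78.

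**Figure D3:**
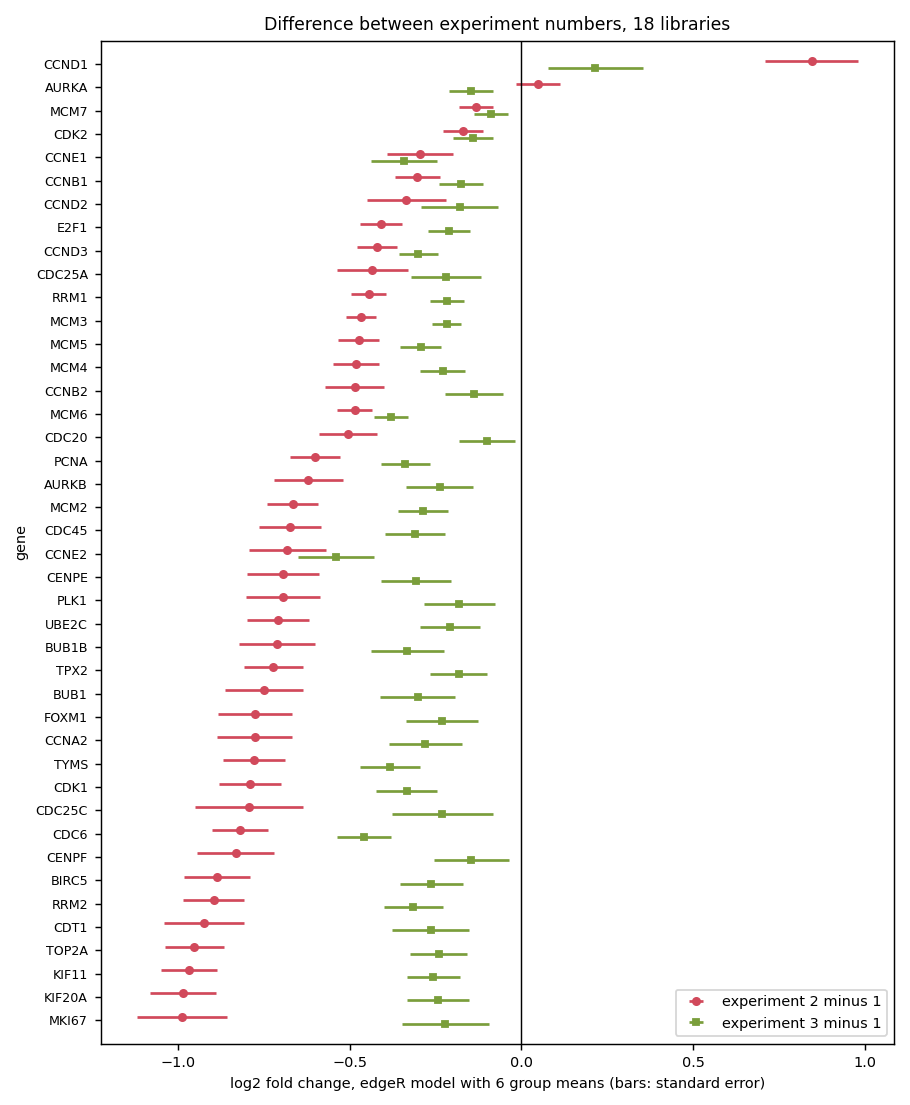
Points give the log2 change of each of the 42 genes from experiment 1 to experiment 2 and from experiment 1 to experiment 3, with bars of 1 standard error. For experiment 2 the points lie between -0.99 and 0.85, with CCND1 alone clearly above 0, and for experiment 3 most lie closer to 0.

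By the median change, experiment 3 lay between experiments 1 and 2. At an unadjusted p under 0.05, 33 genes differed from experiment 1, and the share of all genes at that level was not computed. By adjusted p, 16 of the 42 genes were lower than in experiment 1 and 0 higher (6.81% of all genes were called, 3.03% lower), with a median of -0.24. The largest falls were CCNE2 (-0.54), CDC6 (-0.46), TYMS (-0.38) and MCM6 (-0.38, adjusted p = 0.000252). The count was 5 when the 2 libraries with 23179 and 25322 genes were left out. With the 9 unstimulated libraries alone it was 0, and with the 9 IL-4 libraries alone it was 1. It was 9 without replicate 1 of IRES without IL-4 or of NIC1 with IL-4, or replicate 3 of DNMAML with IL-4, and 10 without replicate 3 of IRES without IL-4, of DNMAML without IL-4 or of IRES with IL-4. Against experiment 2, 31 genes were higher in experiment 3 and 2 lower, CCND1 (-0.63) and AURKA (-0.20), where 43.6% of all genes were called, 20.8% higher and 22.9% lower. MKI67 (0.77), KIF20A (0.74), KIF11 (0.71) and TOP2A (0.71) stood among the larger rises.

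Other genes of the pathway moved by role in the same comparison of experiment 2 with experiment 1. Of 37 further mitotic genes tested 35 fell (median -0.75), where 23.1% of all genes were called lower, among them NDC80 (-1.13) and SPC25 (-1.02) of the kinetochore and the kinesins KIFC1 (-1.03) and KIF2C (-0.83). Of 23 further replication genes 20 fell (median -0.43), with thymidine kinase TK1 and the primase subunit PRIM1 both at -1.03. The pocket proteins differed, since RBL1 fell (-0.63) while RB1 (0.02, adjusted p = 0.62) and RBL2 (-0.09, adjusted p = 0.0721) were not called. CDK4 (0.20) and CDK6 (0.33), the partners of the D cyclins, rose. Of the 6 CDK inhibitors tested, CDKN1A (0.16) and CDKN2D (0.26) rose, CDKN1B (-0.34), CDKN2C (-0.57) and CDKN3 (-0.69) fell, and CDKN1C was at -0.06 (adjusted p = 0.821). CDKN2A and CDKN2B had at most 1 read in any library and were not tested.

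Other measures moved with the experiment number. The summed level of the 10 macrophage markers was 1723 to 1908 CPM in experiment 1, 1473 to 1705 in experiment 2 and 1611 to 1837 in experiment 3, and 5 of the 10 fell from experiment 1 to 2 (23.1% of all genes were called lower), with CD14 at -1.64. The fibroblast and epithelium list (6 of 8 genes tested) had 98.7 to 148 CPM in experiment 1, 145 to 191 in experiment 2 and 119.8 to 129 in experiment 3, of which COL1A1 rose (0.63). The T cell list (5 of 8 tested) had 260 to 322, 200 to 254 and 234 to 282 CPM, with CD3D, LCK and TRAC higher and CD4 lower in experiment 2. The B cell list (2 of 5 tested) had 7.40 to 12.2, 12.1 to 16.8 and 7.69 to 11.98 CPM, with PAX5 higher, and the erythroid and megakaryocyte list (1 of 7 tested) stayed at or below 2.30 CPM. Reads in no annotated feature made up 3.79 to 4.77%, 4.92 to 5.49% and 4.24 to 6.72% of all reads in experiments 1, 2 and 3. Reads not aligned made up 1.39 to 2.26%, 1.2 to 1.32% and 1.51 to 2.69%, so that experiment 2 lay below both others. The part of these measures in the fall of the cell cycle genes was not tested.

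IL-4 for 3 h gave no call among the 42 genes in any vector when the 6 group means alone were fitted. Over all genes 2.93% were called for IRES, 3.05% for NIC1 and 3.28% for DNMAML. At an unadjusted p under 0.05 there were 1, 1 and 2 of the 42 genes, and DESeq2 called 0 as well. The shares of all genes at that unadjusted level were not computed. The medians were -0.12, -0.15 and -0.09 on the log2 scale, against -0.005, -0.011 and -0.009 over all genes, and 36, 36 and 32 of the 42 estimates were below 0. Because the experiment number held so much of the spread, the fit with the number as a block is given beside this one. It called E2F1 and MCM3 in IRES cells, E2F1, CDC6 and MCM3 in NIC1 cells, and E2F1, CCNE2 and CCNE1 in DNMAML cells, all lower. In the same fit 9.04%, 8.8% and 9.95% of all genes were called, and 628, 551 and 743 of the 15037 were called lower. The 2, 3 and 3 calls among the 42 genes did not exceed the shares called in either direction.

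E2F1 had the lowest p of the 42 genes for IL-4 in each vector. Without IL-4 it stood at 49.1, 34.2 and 42.9 CPM for IRES (experiments 1, 2 and 3), at 45.1, 34.2 and 46.2 for NIC1 and at 44.8, 35.0 and 32.3 for DNMAML. With IL-4 it stood at 34.6, 25.5 and 30.3, at 33.2, 24.3 and 29.3, and at 31.5, 26.1 and 26.0. Groups did not overlap in NIC1 and DNMAML cells, and in IRES cells the highest value with IL-4 just exceeded the lowest without. All 9 pairs of the same vector and number were lower with IL-4. The differences were -0.48 (SE 0.171, adjusted p = 0.221), -0.53 (SE 0.171, adjusted p = 0.151) and -0.42 (SE 0.171, adjusted p = 0.318) by edgeR without the block, and reached adjusted p of 0.000517, 0.000177 and 0.00198 with it.

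MCM3, CDC6 and the E cyclins, all known E2F targets, were each called with the block in fewer vectors than E2F1. In DNMAML cells the blocked differences of both E cyclins were larger in size than that of E2F1 (-0.42). MCM3 stood at 226, 162 and 189 CPM in IRES cells without IL-4 and at 191, 143 and 169 with it. In NIC1 cells it stood at 211.5, 144 and 193 without and 178, 125 and 165 with IL-4. Each pair was lower with IL-4, but the groups overlapped in both vectors, and the blocked differences were -0.20 (adjusted p = 0.0408) and -0.22 (adjusted p = 0.0189). CDC6 in NIC1 cells went from 20.2, 10.5 and 15.9 CPM to 15.3, 7.64 and 10.4 (blocked difference -0.48, adjusted p = 0.00846). CCNE2 in DNMAML cells went from 9.73, 7.98 and 7.15 CPM to 7.97, 4.73 and 3.72 (blocked difference -0.63, adjusted p = 0.0117). CCNE1 there went from 16.4, 15.01 and 11.4 CPM to 11.2, 11.1 and 8.41 (blocked difference -0.48, adjusted p = 0.0282). In DNMAML cells the groups overlapped for CCNE2 and did not for CCNE1, with every experiment lower with IL-4 for both. CCND1 had estimates of -0.50, -0.32 and -0.57 in IRES, NIC1 and DNMAML cells and was not called in either fit.

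By pairs, 17 of the 42 genes were lower with IL-4 in all 9, which held for 8.84% of all genes. They were 9 genes of the S phase machinery and its licensing (CDC6, CDT1, MCM2, MCM3, MCM4, MCM5, MCM7, RRM1 and RRM2), TYMS, E2F1, CDC25A, the cyclins CCNA2, CCND1 and CCNE2, and the mitotic genes TOP2A and TPX2. CCND2 and PLK1 were higher in all 9 pairs and CCND3 in 8, without a call. MKI67 was lower in 5 of 9. The licensing genes had medians of -0.16, -0.20 and -0.17 in IRES, NIC1 and DNMAML cells, and the mitotic kinase, checkpoint and exit genes -0.09, -0.04 and 0.006.

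**Figure D4:**
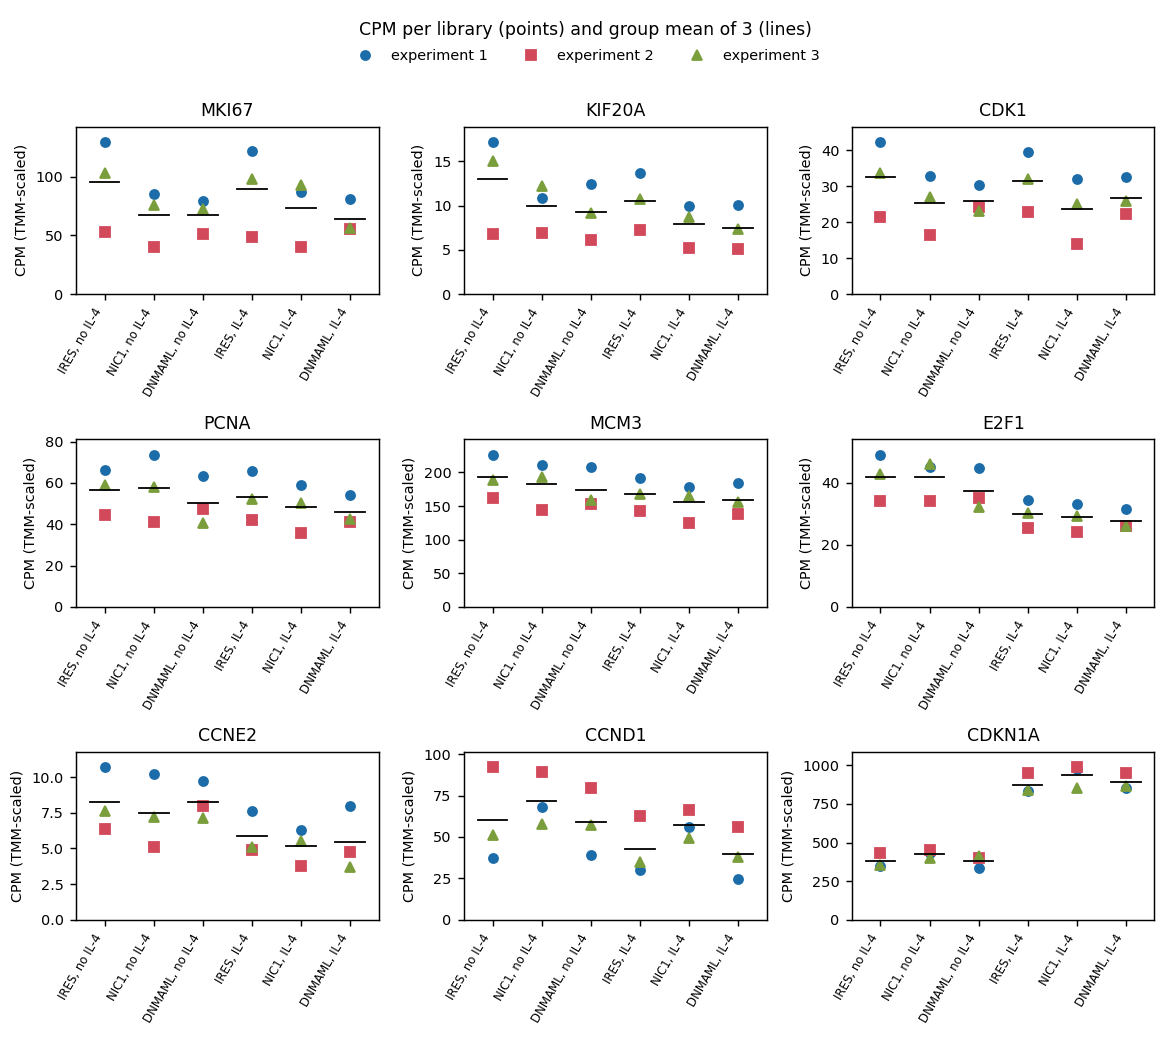
CPM of 9 genes in each library, by group, with the symbol giving the experiment number and the line the mean of 3 libraries. Experiment 2 is low for MKI67, KIF20A, CDK1, PCNA and MCM3 and high for CCND1. The lines for E2F1 and CCNE2 are lower with IL-4 in each vector, and all 9 CDKN1A points with IL-4 lie above all 9 without.

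Outside the 42 genes, CDKN1A, the p21 inhibitor of cyclin-dependent kinases (chr6:36676460-36687339, plus strand), rose with IL-4 in all 3 vectors. It stood at 346, 432 and 358 CPM in IRES cells without IL-4 and at 831, 949 and 840.2 with it. In NIC1 cells it went from 434, 452 and 399 to 975, 986 and 853, and in DNMAML cells from 338, 399.9 and 412 to 853, 951 and 868. No library with IL-4 overlapped one without, and the differences were 1.21 (SE 0.107, adjusted p = 2.87e-06), 1.13 (SE 0.106, adjusted p = 4.95e-06) and 1.22 (SE 0.107, adjusted p = 2.38e-06). It was the 1 CDK inhibitor of 6 tested to be called in each vector. WEE1, the kinase that holds CDK1 inactive, fell by 0.70, 0.79 and 0.77 on the log2 scale (adjusted p = 0.0354, 0.0161 and 0.0179). CCNH, the cyclin of the CDK-activating kinase, rose by 0.59, 0.62 and 0.49 (adjusted p = 0.00437, 0.00316 and 0.0183). E2F3 fell in IRES cells (-0.28, adjusted p = 0.0213) and in DNMAML cells (-0.37, adjusted p = 0.00305), and in NIC1 cells it was at -0.25 (adjusted p = 0.0502). With the block WEE1, CCNH and E2F3 were called in all 3 vectors. Without the block, the calls of CDKN1A held in 6 of 6 fits per vector that left out 1 library. Those of WEE1 held in 2, 3 and 3 of 6 in IRES, NIC1 and DNMAML cells, and those of CCNH in 6, 6 and 1. Those of E2F3 held in 2 of 6 for IRES and 6 of 6 for DNMAML. The WEE1 call in IRES cells was lost without replicate 2 or 3 without IL-4, or 1 or 3 with it, as was that of E2F3. The WEE1 call was lost in NIC1 cells without replicate 2 without IL-4, or 1 or 3 with it, and in DNMAML cells without the same replicates. The CCNH call in DNMAML cells was kept only without replicate 2 with IL-4. None of 37 further mitotic, 23 further replication, 10 ubiquitin ligase or 11 pocket protein and DREAM genes was called, and the block added CDK6 (-0.37, -0.30 and -0.36 in IRES, NIC1 and DNMAML cells).

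The vectors gave no call among the 42 genes, without or with IL-4, when the group means alone were fitted. This fit takes no account of the experiment number, which held most of the spread of these genes. For NIC1 against IRES 0.233% of all genes were called without IL-4 and 0.2% with it, for DNMAML against IRES 0% in both, and for NIC1 against DNMAML 1.65% and 1.44%. Without the block no gene of the 42 was at an unadjusted p under 0.05, and DESeq2 called 0. With it, 14 and 11 were at that level for NIC1 against IRES (without and with IL-4), 16 and 15 for DNMAML against IRES, and 4 and 3 for NIC1 against DNMAML. The shares of all genes at that unadjusted level were not computed. By adjusted p the block added 1 call, MCM6 in NIC1 against DNMAML without IL-4, with its values given below. For the difference of the IL-4 response of NIC1 or DNMAML from that of IRES, 0% of all genes were called, and none of the 42 was at an unadjusted p under 0.05 with or without the block. Without IL-4, MKI67 had a mean of 95.4 ± 39.2 CPM for IRES, 67.2 ± 23.6 for NIC1 and 67.9 ± 14.5 for DNMAML (SD, n = 3), with overlapping libraries. With IL-4 the means were 89.6 ± 37.3, 73.3 ± 29.1 and 64.4 ± 14.2. Most estimates were below 0 without passing the test, and the median was -0.17 without and -0.22 with IL-4 for NIC1 against IRES (37 and 38 of 42 below 0), and -0.24 in both for DNMAML against IRES (40 and 41 below 0). NIC1 against DNMAML had medians of 0.08 and 0.06 over the 42 genes. Over all genes the medians without and with IL-4 were -0.0004 and -0.003 for NIC1 against IRES. They were 0.0008 and -0.003 for DNMAML against IRES, and -0.001 and -0.003 for NIC1 against DNMAML. The shares of all genes with an estimate below 0 were not computed.

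The lowest p among the vector comparisons belonged to CCND2. Without IL-4 it stood at 7.55, 7.50 and 7.87 CPM for IRES, 7.68, 8.68 and 6.40 for NIC1 and 11.99, 7.25 and 11.51 for DNMAML. Its level in DNMAML experiment 2 was the lowest of that group and overlapped the other vectors. The difference of NIC1 from DNMAML was -0.43 (SE 0.209, adjusted p = 0.386 by edgeR). Without the 6 libraries of experiment 2 it was -0.74 and called (adjusted p = 0.0259). With the block, the shares of all genes called were 5.37% and 5.44% for NIC1 against IRES, 0.146% and 0.0931% for DNMAML against IRES, 13.8% and 12.6% for NIC1 against DNMAML, and 0% for both differences of the IL-4 response. The block added 1 call among the 42 genes, MCM6 in NIC1 against DNMAML without IL-4 (0.33, adjusted p = 0.00332), which stood at 73.1, 45.8 and 58.2 CPM in NIC1 cells and 55.9, 43.3 and 40.9 in DNMAML cells, with overlapping groups. Without the block it was at 0.34 (SE 0.203, adjusted p = 0.52). The same gene was at 0.22 with IL-4 (adjusted p = 0.0525 with the block).

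The vectors differed in the change of these genes in experiment 2, a comparison chosen after the data had been seen. The mean of the library medians (log2 CPM minus each gene's mean over the 18 libraries, median over the 42 genes) was 0.485, -0.276 and 0.206 for IRES in experiments 1, 2 and 3, and 0.259, -0.480 and 0.081 for NIC1. For DNMAML it was 0.174, -0.237 and -0.192, so that experiments 2 and 3 were alike there. In a model with vector by number terms, the change of experiment 2 from the mean of experiments 1 and 3 was set against that of another vector. The residual spread then comes from libraries of the same vector and number without and with IL-4, which may share a culture, and these p-values are too small if they do.

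The change in experiment 2 was higher in DNMAML than in IRES cells for 13 genes (0.638% of all genes were called, 0.499% higher), and DESeq2 called 7. They were the mitotic or S phase genes FOXM1, RRM2, CCNA2, CDK1, BUB1, BUB1B, AURKB, PLK1, CENPF, KIF11, TPX2, TOP2A and MKI67. CENPF, a kinetochore protein, stood at 156, 66.4 and 132 CPM in IRES cells without IL-4 and at 91.8, 73.1 and 90.7 in DNMAML cells, a difference of 0.72 (SE 0.0793, adjusted p = 8.58e-06). IRES was the higher vector in experiments 1 and 3 and slightly the lower in experiment 2. MKI67 differed by 0.73 (SE 0.110, adjusted p = 0.00157). Only 2 genes, MKI67 not among them, were called without IRES replicate 2 without IL-4, and 7 or 8 without replicate 1 of IRES without IL-4, replicate 2 of DNMAML without or with IL-4, or replicate 2 or 3 of IRES with IL-4. The change was lower in NIC1 than in DNMAML cells for 29 genes and higher for 1 (7.12% of all genes called, 4.34% lower and 2.77% higher). Among the 29 was CCND1, which rose from experiment 1 to 2 in both vectors, by 0.32 in NIC1 and 1.09 in DNMAML cells. RRM2 stood at 83.8, 35.0 and 69.4 CPM in NIC1 cells without IL-4 and at 83.9, 53.8 and 63.0 in DNMAML cells, a difference of -0.68 (SE 0.0808, adjusted p = 4.32e-06). CCNA2, cyclin A2, stood at 46.9, 22.1 and 38.6 against 38.4, 30.9 and 30.2 (-0.82, SE 0.104, adjusted p = 9.46e-06). The gene with the opposite sign was CCND2 (0.75, SE 0.179, adjusted p = 0.00849), which fell from experiment 1 to 2 in DNMAML cells (-0.79) and was at -0.04 in NIC1 cells (adjusted p = 0.865). The 30 calls fell to 15 without NIC1 replicate 2 and to 19 without DNMAML replicate 2, both without IL-4, and to 17 by DESeq2.

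The change in experiment 2 differed between NIC1 and IRES for 3 genes, and was the lower in NIC1 for each (3.5% of all genes called, 1.94% lower). CCND1 stood at 37.1, 91.9 and 51.2 CPM in IRES cells without IL-4 and at 68.1, 89.0 and 57.6 in NIC1 cells, a difference of the changes of -0.59 (SE 0.0865, adjusted p = 0.00012). Both vectors were close in experiment 2 and apart in experiment 1. RRM2 (-0.34, adjusted p = 0.0143) and TYMS (-0.34, adjusted p = 0.0369) were the others. The 3 calls fell to 1 by DESeq2, and to 1 without replicate 2 of IRES or NIC1, without or with IL-4, without NIC1 replicate 3 without IL-4, or without IRES replicate 3 with IL-4. Within experiments, NIC1 stayed below IRES for 31 to 38 of the 42 genes in all 3 numbers, without and with IL-4. Without IL-4, 38 genes were lower in DNMAML than in IRES in experiment 1, 11 in experiment 2 and 40 in experiment 3. With IL-4 these counts were 39, 20 and 40, and the median in experiment 2 was close to 0 (0.007). For NIC1 against DNMAML the counts lower were 11, 36 and 3 without IL-4 and 20, 34 and 7 with it. Each of these counts comes from a single pair of libraries. The shares of all genes lower in the same pairs were not computed.

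**Figure D5:**
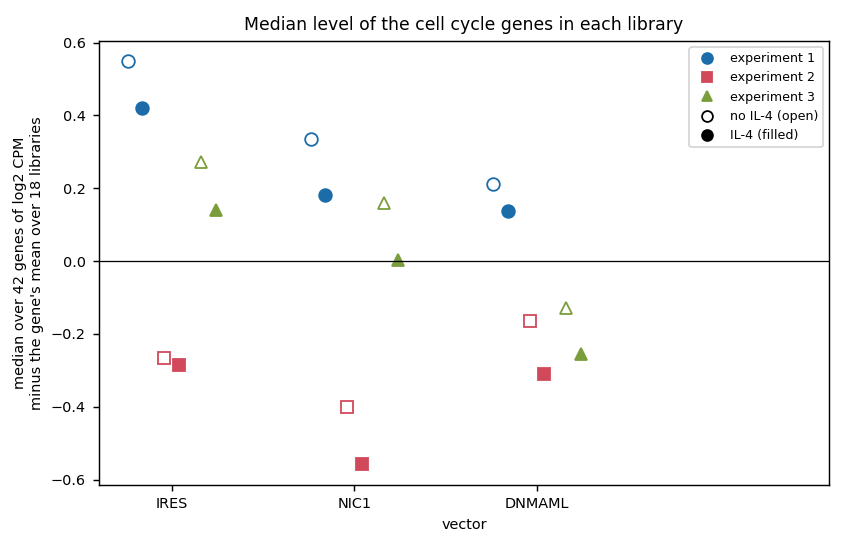
Each symbol is 1 library, giving the median over the 42 genes of log2 CPM minus the gene's mean over 18 libraries, by vector, with open symbols without IL-4 and filled symbols with it. Experiment 2 lies at or below -0.165 in every vector, and DNMAML experiment 3 lies near it.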

How the data were processed

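The deposited files hold whole-number read counts per Ensembl gene, 1 file per library. Per the submitters' processing notes, the authors' tools included HISAT2 and HTSeq, beside Trimmomatic, FastQC and DESeq2, and the build was GRCh38.p12; versions and settings were not given there. Per the labels' protocols, libraries were made from total RNA with an Illumina TruSeq kit. Entries that name no gene held 23.8 to 30.9% of the reads and were left out. Gene symbols came from GENCODE 29 (57447 of 58051 IDs matched). Counts were scaled by TMM and tested with edgeR 4.0.16 in R 4.3.3 (quasi-likelihood, robust, filterByExpr, Benjamini-Hochberg over 15037 genes). The fit had the 6 group means, with the experiment number added as a term for the comparisons between numbers. CPM are TMM-scaled, and log2 CPM used a prior count of 2. DESeq2 1.42.0 was an alternative, and the others tried were scaling, filtering, the number as a block, leaving out each library, fewer groups, and (chosen after seeing the data) omitting 2 libraries or experiment 2. The fits were also run on simulated data, in which changes were drawn for each gene separately and no libraries shared a culture. Those runs do not test the p-values for libraries that share a culture.

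The experiment numbers come from the sample titles. Libraries of the same number deviated together from their group means (45 pairs, r from 0.206 to 0.759), and 18 of 18 libraries were closest to their own number, so the numbers were taken to pair the samples. Replicates differed by more than counting noise, with chi-square per degree of freedom from 5.45 to 48.5. Depth per library is given in the report. The chi-square values pool all genes tested and compare libraries of different experiment numbers. For genes with few reads counting also limits precision, as for CDC25C with 15 to 69 reads per library.

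The 42 genes, the lists and the comparisons were chosen with earlier results of these data known. Genes given in every library or by range were those past the threshold in a comparison with or without the block, the 8 with the lowest F test p over the numbers, and MKI67, PCNA, CCND1, CCND2, CCND3, E2F1 and CDK1. Of other pathway genes all CDK inhibitors, RB1, RBL1, RBL2, CDK4 and CDK6 were named, and at most 4 of a list by lowest p. Promoter windows came from RefSeq, and 11 of the 42 genes had none in the table used.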

Additional observations from a re-analysis of the deposited data

Results flagged for a closer look

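The change of experiment 2 from the mean of experiments 1 and 3 differed between vectors, by a test of the difference itself with edgeR (adjusted p under 0.05), for 13 of the 42 genes in DNMAML against IRES cells, 3 in NIC1 against IRES cells and 30 in NIC1 against DNMAML cells. Of all genes tested 0.638%, 3.5% and 7.12% were called in these comparisons, so that the 3 genes stand close to that background. These comparisons were chosen after the data had been seen and are described in the report. Libraries of the same vector and number served as replicates, and whether they shared a culture was not stated in the labels. The median change from experiment 1 to 2 was -0.74 in IRES, -0.80 in NIC1 and -0.42 in DNMAML cells.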

How the results depend on the processing

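Scaling by RLE moved no count of called genes among the 42 by over 1.5 times. The fall from experiment 1 to 2 was called for 38 to 41 genes over the fits that left out 1 library, for experiment 3 against 1 the range was 9 to 18, and for experiment 3 against 2 it was 31 to 36. The vector by number counts ranged from 2 to 15 (DNMAML against IRES), 1 to 3 (NIC1 against IRES) and 15 to 30 (NIC1 against DNMAML). Comparisons between groups, fitted without the block, gave 0 calls in each such fit. For experiment 3 against 1 the count was 28 with no filter, 0 with the 9 unstimulated libraries alone, 1 with the 9 IL-4 libraries alone and 5 when the 2 libraries with 23179 and 25322 genes detected were left out; for experiment 3 against 2 it was 21 with the unstimulated libraries alone. DESeq2 gave 7, 1 and 17 in the vector by number comparisons. Fewer samples were fitted in several of these; otherwise the cause was not tested.

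With the experiment number as a replicate block, the count rose from 0 to 2, 3 and 3 for IL-4 in IRES, NIC1 and DNMAML cells and to 1 for NIC1 against DNMAML without IL-4, and no other call among the 42 genes changed in comparisons between groups. Without experiment 2, 1 gene was called in NIC1 against DNMAML without IL-4 (CCND2, -0.74, adjusted p = 0.0259).

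Estimates near 0 changed sign in a few settings. AURKA in experiment 2 against 1 was at -0.11 with unstimulated libraries alone and ran from -0.0057 (no DNMAML replicate 2 with IL-4) to 0.084 over the fits leaving out 1 library. CCNE1 in experiment 3 against 2 was at 0.015 with unstimulated libraries alone, 0.0126 without those 2 libraries, and from -0.13 to 0.0174 over such fits, above 0 in 3 (0.0137 and 0.0149 besides; DNMAML replicates 2 and 3 without IL-4, and 2 with it). In that comparison MCM7 was at -0.016 with unstimulated libraries alone, and CDK2 ran from -0.016 (no NIC1 replicate 3 with IL-4) to 0.066. For the IL-4 response, CCNE1 ran from -0.24 to 0.016 in IRES cells and from -0.33 to 0.011 in NIC1 cells, and MCM3 from -0.24 to 0.030 in DNMAML cells, each above 0 only without replicate 1 without IL-4. MKI67 in the NIC1 against IRES vector by number comparison ran from -0.014 (no NIC1 replicate 2 without IL-4) to 0.17.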
